A study of Rattus norvegicus with 9 samples.

Results

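Of the 32883 genes in the table, 6 were described here: the 4 whose symbol begins with Cyp3a (Cyp3a23/3a1, Cyp3a18, Cyp3a9 and Cyp3a62), the P450 reductase gene Por and the cytochrome b5 gene Cyb5a. They were chosen by name, and Cyp3a2 was not analysed here. RNA sequencing measured liver mRNA in 9 male Sprague-Dawley rats, with 1 library per rat and 3 rats in each of 3 groups. Rats 1, 3 and 12 formed the normal control group, on a normal diet. Rats 13, 17 and 24 formed the DEN model group, which received weekly intraperitoneal injections of 0.01% diethylnitrosamine (DEN, a liver carcinogen) over 16 weeks. Rats 27, 28 and 42 formed the PZH administration group, given the same DEN injections together with PZH (Pien-Tze-Huang, a traditional Chinese medicine formula). The PZH dose and the week of sacrifice of the sequenced rats were not given in the sources used here, so groups may differ in time on DEN. The treatment tag of the labels reads PZH for the DEN model rats too, and their group was taken from the first letter of their names.

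The CYP3A enzymes are heme-containing monooxygenases of the endoplasmic reticulum that oxidize a large share of drugs, steroids and bile acids, mainly in hepatocytes and in the small intestine. They work only when electrons reach their heme: NADPH-cytochrome P450 reductase, the product of Por, passes electrons from NADPH to all microsomal P450 enzymes, and cytochrome b5, the product of Cyb5a, can supply the later electron of the cycle and also feeds the fatty acid desaturases. Cyp3a genes are classical targets of the xenobiotic receptors PXR (gene Nr1i2) and CAR (gene Nr1i3), which bind DNA as partners of RXR at paired hexamers. Rat Cyp3a18 is known as a male-predominant form, whereas Cyp3a9 is known to be responsive to estrogen. Cyp3a62 is known for its presence in the gastrointestinal tract beside the liver.

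In the deposited coordinates Cyb5a lies on chromosome 18 and the other 5 genes on chromosome 12. Cyp3a23/3a1 (ENSRNOG00000032560) spans 12:11655402-11733136, Cyp3a18 (ENSRNOG00000000969) 12:10636275-10684278, Cyp3a9 (ENSRNOG00000046643) 12:19074583-19114399 and Cyp3a62 (ENSRNOG00000001379) 12:18678594-18709397. Por (ENSRNOG00000001442) spans 12:23998411-24046814 and Cyb5a (ENSRNOG00000015205) 18:81694808-81726821. The genome build of these coordinates was not given in the sources used here. Total counts ranged from 14922973 to 27161496 per library, with the deepest being rat 27, and 3 counts corresponded to 0.125 to 0.252 CPM (read counts scaled to a common library size), so even the lowest value of a member lay above this limit.

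The promoters are shown because the 4 Cyp3a genes did not move alike in these livers. Each window runs from 250 bases before to 50 bases after the RefSeq start on build GRCr8, which need not be the build of the deposited coordinates, and is written 5′ to 3′ on the strand of the gene. All 6 genes matched RefSeq, with Cyp3a23/3a1 matched to the RefSeq symbol Cyp3a23-3a1. Capitals mark the nuclear receptor hexamers AGTTCA or AGGTCA, searched on both strands.
Cyp3a23/3a1, chr12:14398754-14399053, minus strand: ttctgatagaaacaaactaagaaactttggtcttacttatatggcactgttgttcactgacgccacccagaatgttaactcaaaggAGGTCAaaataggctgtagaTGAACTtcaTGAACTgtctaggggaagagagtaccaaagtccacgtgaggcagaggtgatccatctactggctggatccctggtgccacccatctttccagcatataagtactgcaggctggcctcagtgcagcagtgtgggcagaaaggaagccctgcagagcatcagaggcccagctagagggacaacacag
Cyp3a18, chr12:13994062-13994361, plus strand: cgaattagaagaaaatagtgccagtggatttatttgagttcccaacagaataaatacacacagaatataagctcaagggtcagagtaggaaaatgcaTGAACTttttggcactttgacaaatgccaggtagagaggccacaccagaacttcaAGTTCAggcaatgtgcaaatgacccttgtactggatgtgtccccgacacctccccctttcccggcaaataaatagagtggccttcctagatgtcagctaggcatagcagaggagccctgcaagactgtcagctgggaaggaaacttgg
Cyp3a9, chr12:21960111-21960410, minus strand: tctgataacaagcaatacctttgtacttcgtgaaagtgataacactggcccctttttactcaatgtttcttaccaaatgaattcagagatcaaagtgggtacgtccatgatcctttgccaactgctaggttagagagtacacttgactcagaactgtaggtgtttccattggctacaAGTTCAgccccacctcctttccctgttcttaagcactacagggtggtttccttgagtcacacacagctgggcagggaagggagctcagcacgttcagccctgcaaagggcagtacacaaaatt
Cyp3a62, chr12:21511513-21511812, plus strand: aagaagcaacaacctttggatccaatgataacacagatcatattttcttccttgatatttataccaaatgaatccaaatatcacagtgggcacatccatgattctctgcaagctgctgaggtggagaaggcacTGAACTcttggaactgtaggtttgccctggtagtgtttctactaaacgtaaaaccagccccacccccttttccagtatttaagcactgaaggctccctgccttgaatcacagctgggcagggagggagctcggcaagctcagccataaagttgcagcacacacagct
The Cyp3a23/3a1 window held 3 hexamers, the Cyp3a18 window 2, and the windows of Cyp3a9 and Cyp3a62 1 each, while the windows of Por and Cyb5a, not printed, also held 1 each. At least 1 hexamer was found in 27.9% of 33469 RefSeq windows of the same length, and 2 or more in 5.41%. Only the Cyp3a23/3a1 window among the 6 had 2 hexamers in the same direction separated by 3 bases, the first base being at -144 from the start, an arrangement found in 0.0418% of all windows. The letters CAAAG directly followed by TCCA, an HNF4-type element, were found on either strand only in the Cyp3a23/3a1 window, at -110, and in 0.391% of all windows. Facing-away hexamers with 6 bases between them were in none of the 6 windows and in 0.00598% of all. TATAA on the gene strand was at -41 in Cyp3a23/3a1 and at -185 in Cyp3a18, and in 18.4% of all windows. Aligned over their whole length, the windows of Cyp3a9 and Cyp3a62 shared 66.8% of aligned positions, and the other 5 pairs between 52.4% and 56.8%. These matches describe letters in the windows and no binding was measured.

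All 6 genes changed in the DEN model group compared with the normal control group. Cyp3a23/3a1, Cyp3a18, Cyp3a9, Por and Cyb5a fell, and Cyp3a62 rose. A gene was counted as changed at an adjusted p under 0.05 in the quasi-likelihood test of edgeR, with Benjamini-Hochberg adjustment over all genes tested. In this comparison 20.5% of the 14255 genes tested were lower and 25.3% higher, so a change in itself was common in these livers. At the thresholds of the study, a log2 fold change beyond 2 in either direction with P under 0.001 before adjustment, 4 of the 6 genes passed against 12.3% of all genes. Only the cutoffs were those of the study. The P-values came from the quasi-likelihood test used here, and the number of genes passing differs from that in the paper. The groups did not overlap for any of the 6 genes, against 58.8% of all genes. In the PZH administration group compared with the DEN model group, 4 of the 6 genes changed, all upwards: Cyp3a23/3a1, Cyp3a18, Cyp3a9 and Cyb5a. Here 8.72% of 14272 genes were higher and 10.3% lower, 2 of the 6 genes passed the thresholds of the study against 2.43% of all genes, and the groups did not overlap for 4 of the 6 genes against 40.8% of all genes. Both comparisons share the DEN model rats. All 6 genes passed the filter on low counts in every comparison.

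**Figure D1:**
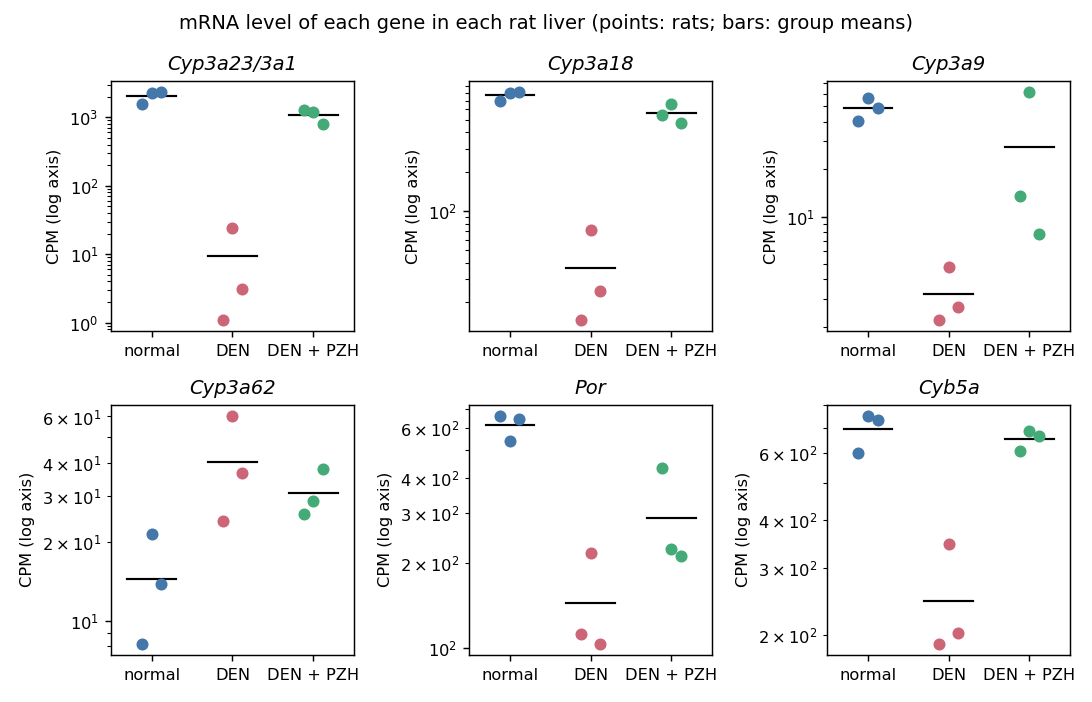
Level of each of the 6 genes in each rat, in CPM on log axes that differ between panels, with points for rats and bars for group means (3 rats per group). The DEN model rats lie below the normal control rats in 5 panels and above them in the Cyp3a62 panel, and rat 17 is the highest DEN model rat in all 6 panels.

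Cyp3a23/3a1 encodes a CYP3A of rat liver that is inducible by pregnane steroids. It stood at 1580, 2260 and 2310 CPM in the normal control rats 1, 3 and 12, at 1.1, 24.1 and 3.08 CPM in the DEN model rats 13, 17 and 24, and at 1260, 1180 and 794 CPM in the PZH administration rats 27, 28 and 42. The groups were fully separated, with the DEN model rats lowest and rat 17 well above the other DEN model rats. The low values still rested on 26, 486 and 74 counts. Its mean in the DEN model group was 0.459% of the normal mean, a 216-fold reduction (log2 fold change -7.76, SE 1.18, edgeR adjusted p = 0.0013). In the PZH administration group it was 117-fold higher than in the DEN model group (log2 fold change 6.87, SE 1.15, edgeR adjusted p = 0.012), and its mean reached 52.6% of the normal mean. Without rat 17 these log2 fold changes were -9.92 and 9.01, both still past the test.

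Cyp3a18 encodes a CYP3A form that hydroxylates steroids. Its values were 698, 797 and 808 CPM in the normal control rats, 14.7, 71.4 and 24.6 CPM in the DEN model rats, and 539, 659 and 475 CPM in the PZH administration rats. No group overlapped another, and the normal control rats were highest. The gene was 20.6-fold lower in DEN model than in normal control rats (log2 fold change -4.36, SE 0.59, edgeR adjusted p = 0.00076). It was 15.4-fold higher with PZH than in the DEN model group (log2 fold change 3.94, SE 0.58, edgeR adjusted p = 0.0098), at 72.6% of the normal mean. Without rat 17 these log2 fold changes were -5.28 and 4.83, both still past the test.

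Cyp3a9 encodes another steroid-hydroxylating form and was present at a lower level. It stood at 40.6, 56.7 and 48.7 CPM in the normal control rats, 2.21, 4.75 and 2.66 CPM in the DEN model rats, and 13.5, 61.3 and 7.69 CPM in the PZH administration rats. Rat 28 exceeded every normal control rat, whereas rats 27 and 42 lay between the other groups. Its reduction in the DEN model group was 15.1-fold (log2 fold change -3.91, SE 0.32, edgeR adjusted p = 0.00012). Rats given PZH had 8.7-fold more than DEN model rats (log2 fold change 3.12, SE 0.76, edgeR adjusted p = 0.028). Without rat 28 this difference was 1.77 on the log2 scale and did not pass the test (edgeR adjusted p = 0.052), and it also missed the threshold without rat 13 (edgeR adjusted p = 0.11) or without rat 24 (edgeR adjusted p = 0.093).

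Cyp3a62 was the only Cyp3a gene of the 4 that rose in the DEN model group. Its values were 8.2, 21.5 and 13.8 CPM in the normal control rats, 24.1, 60.2 and 36.5 CPM in the DEN model rats, and 25.6, 28.6 and 37.7 CPM in the PZH administration rats. All 6 DEN-injected rats lay above all 3 normal control rats, and the groups with and without PZH overlapped. The gene was 2.8-fold higher in DEN model than in normal control rats (log2 fold change 1.48, SE 0.42, edgeR adjusted p = 0.019). The call was lost without rat 1 (log2 fold change 1.18, edgeR adjusted p = 0.062), rat 12 (1.45, edgeR adjusted p = 0.063) or rat 17 (1.07, edgeR adjusted p = 0.053). PZH administration and DEN model rats differed by -0.37 on the log2 scale, with a 95% confidence interval from -1.12 to 0.37 (edgeR adjusted p = 0.45). With libraries scaled by their totals alone this difference was -0.99 and passed the test (edgeR adjusted p = 0.026).

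The libraries of the groups differed in scaling. The trimmed mean of M values (TMM) factors were 0.731 to 0.799 in normal control, 1.21 to 1.58 in DEN model and 0.863 to 0.941 in PZH administration rats. Scaling by library totals in place of TMM shifted the log2 fold changes by a median of 0.86 in the DEN model against normal control, by -0.67 in PZH administration against DEN model and by 0.23 in PZH administration against normal control. The median over all genes was then 0.89, -0.67 and 0.21, so a value scaled in this way is to be read against these medians. Of all genes, 57% were higher and 6.72% lower in the first comparison under library totals, 3.9% higher and 39.9% lower in the second, and 6.13% higher and 0.682% lower in the last. The 6 genes kept their direction and their call in the DEN model against normal control under this scaling, with Cyp3a23/3a1 at -7.05, Cyp3a18 at -3.6, Cyp3a9 at -3.08, Cyp3a62 at 2.32, Por at -1.27 and Cyb5a at -0.65 on the log2 scale.

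The reductase gene Por also fell in the DEN model group. It stood at 659, 540 and 643 CPM in the normal control rats, 112, 217 and 104 CPM in the DEN model rats, and 432, 224 and 211 CPM in the PZH administration rats. Rat 27 was well above the other PZH administration rats, of which rat 42 lay below the highest DEN model rat. Por was 4.19-fold lower in DEN model than in normal control rats (log2 fold change -2.07, SE 0.33, edgeR adjusted p = 0.0016). Its difference between PZH administration and DEN model groups was 1.03 on the log2 scale (95% confidence interval 0.12 to 1.93) and did not pass the test (edgeR adjusted p = 0.1). Without rat 17 it was 1.43 and passed (edgeR adjusted p = 0.026), and DESeq2 also called it (log2 fold change 1.04, DESeq2 adjusted p = 0.035), while without rat 27 it was 0.61. It was 0.39 under scaling by library totals (edgeR adjusted p = 0.32) and 0.36 in limma on log2(FPKM + 1) (limma adjusted p = 0.33).

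Cyb5a stood at 600, 750 and 731 CPM in the normal control rats, 190, 347 and 202 CPM in the DEN model rats, and 609, 685 and 667 CPM in the PZH administration rats. The PZH administration rats lay within the range of the normal control rats, and the DEN model rats lay below both. The gene was 2.79-fold lower in the DEN model group (log2 fold change -1.48, SE 0.3, edgeR adjusted p = 0.0049). It was 2.7-fold higher in the PZH administration group than in the DEN model group (log2 fold change 1.43, SE 0.29, edgeR adjusted p = 0.017), a call that was lost without rat 13 (edgeR adjusted p = 0.081), rat 24 (edgeR adjusted p = 0.064) or rat 28 (edgeR adjusted p = 0.054).

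**Figure D2:**
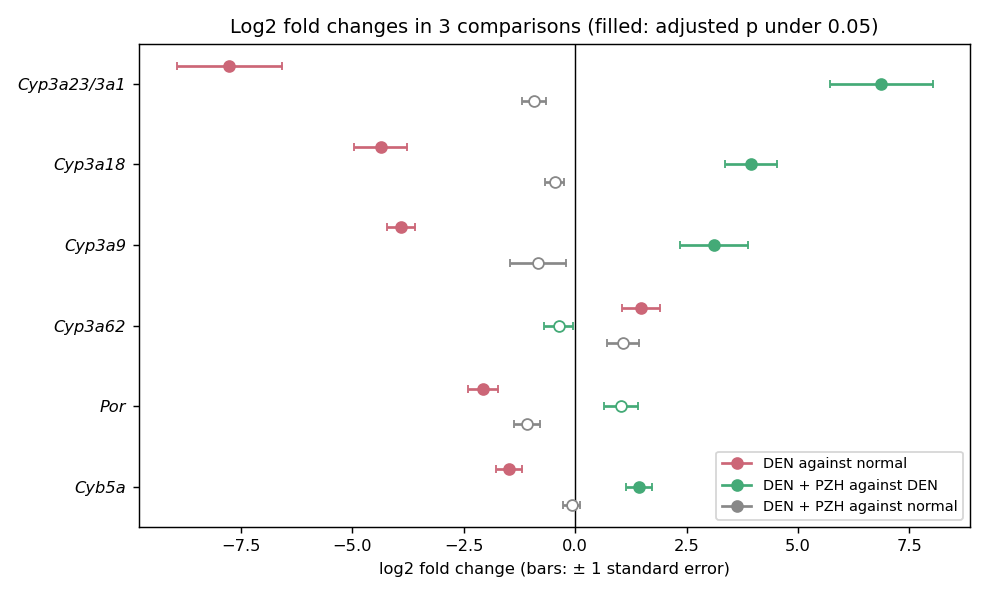
Log2 fold change of the 6 genes in the 3 comparisons, with bars of 1 standard error and filled points where the edgeR adjusted p was under 0.05. The DEN model against normal control points run from -7.76 (Cyp3a23/3a1) to 1.48 (Cyp3a62), and no point of PZH administration against normal control is filled.

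None of the 6 genes changed between the PZH administration and normal control groups in edgeR's quasi-likelihood test, although 3 had an unadjusted p under 0.05 and DESeq2 called 3. Of the 13348 genes tested there, 4.07% were higher and 1.15% lower, 2.32% passed the thresholds of the study and 24.2% had groups that did not overlap, as did 4 of the 6 genes. Cyp3a23/3a1 differed by -0.93 on the log2 scale (95% confidence interval -1.55 to -0.31, edgeR adjusted p = 0.092). Por differed by -1.08 (95% confidence interval -1.75 to -0.41, edgeR adjusted p = 0.073), and by -1.5 without rat 27, when it passed the test (edgeR adjusted p = 0.0043). Cyp3a62 differed by 1.07 (95% confidence interval 0.26 to 1.87, edgeR adjusted p = 0.14). DESeq2 called these 3 genes, with adjusted p-values of 0.0092, 0.0056 and 0.043. The intervals of Cyp3a18 (-0.94 to 0.02), Cyp3a9 (-2.27 to 0.6) and Cyb5a (-0.54 to 0.37) included 0. Without rat 28, Cyp3a9 differed by -2.19 and passed the test (edgeR adjusted p = 0.027).

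Levels of different genes were compared per length, as deposited FPKM. In the normal control rats the order of mean FPKM was Cyb5a (715), Cyp3a23/3a1 (545), Cyp3a18 (236), Por (196), Cyp3a9 (24.8) and Cyp3a62 (6.02). Cyb5a and Cyp3a23/3a1 were close to each other at the edge, with 636 FPKM in the lowest rat for the former and 635 FPKM in the highest rat for the latter. In the DEN model rats the order was Cyb5a (454), Por (81.3), Cyp3a62 (30.1), Cyp3a18 (19.4), Cyp3a23/3a1 (4.1) and Cyp3a9 (2.92). The least abundant of the 4 Cyp3a genes in normal liver thus had the highest mean of the 4 in the DEN model rats. The ranges of Cyp3a62 and Cyp3a18 overlapped, as did those of Cyp3a23/3a1 and Cyp3a9. In the PZH administration rats the order was Cyb5a (795), Cyp3a23/3a1 (336), Cyp3a18 (201), Por (107), Cyp3a9 (16.7) and Cyp3a62 (15.2), and the ranges of the last 2 overlapped.

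The shares of the 4 Cyp3a genes within a rat do not depend on library scaling. They are shares among these 4 rows only, without Cyp3a2, which was not analysed here. Cyp3a23/3a1 made up 63.8% to 68.8% of the summed Cyp3a FPKM in the normal control rats, 1.83%, 11.4% and 3.27% in the DEN model rats 13, 17 and 24, and 56.1% to 64.7% in the PZH administration rats. Cyp3a62 made up 0.523% to 1.02% in the normal control rats, 63.1%, 45.1% and 61.2% in the DEN model rats, and 2.08%, 2.15% and 4.2% in the PZH administration rats. The order of these shares was reversed in all 3 DEN model rats. The share of Cyp3a18 was similar in the 3 groups, at 27.6% to 32.5%, 28% to 39.1% and 31.9% to 38.7%, with overlapping ranges. Cyp3a9 held 2.79% to 3.28%, 4.34% to 7.05% and 1.04% to 5.61%.

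**Figure D3:**
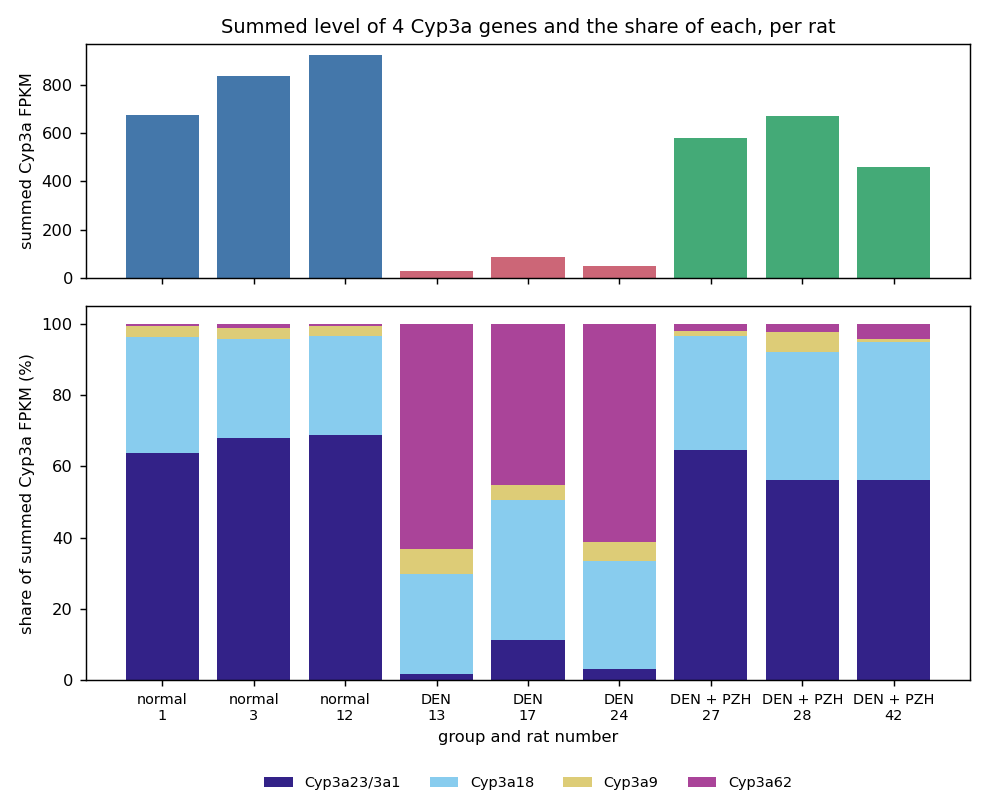
Top, summed FPKM of the 4 Cyp3a genes in each rat; bottom, the percent of that sum held by each gene. The sum lies between 30.8 and 87.9 FPKM in the DEN model rats, where Cyp3a62 holds 45.1% to 63.1%, and at 459 FPKM or above in all other rats, where it holds at most 4.2%.

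The summed level of the 4 Cyp3a genes, without Cyp3a2, was 676, 836 and 923 FPKM in the normal control rats. It was 30.8, 87.9 and 51 FPKM in the DEN model rats, and 578, 671 and 459 FPKM in the PZH administration rats. All 3 groups were separated. The mean was 812 ± 125, 56.6 ± 28.9 and 569 ± 106 FPKM (SD, n = 3 each). The differences in log2(summed FPKM + 1) were -3.93, 3.42 and -0.52 for DEN model against normal control, PZH administration against DEN model and PZH administration against normal control. Each had an exact two-sided permutation p of 0.1, the smallest that 3 rats against 3 allow. No TMM factors were applied to FPKM, so these differences are not on the scale of the TMM-based fold changes of single genes. Summed CPM, which carry TMM factors but no scaling for gene length, gave -5.2, 4.42 and -0.77.

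The ratio of reductase to Cyp3a mRNA was higher in every DEN model rat than in any other rat. The FPKM of Por divided by the summed Cyp3a FPKM was 0.318, 0.194 and 0.228 in the normal control rats, 2.22, 1.23 and 1.32 in the DEN model rats, and 0.264, 0.127 and 0.177 in the PZH administration rats. The normal control and PZH administration rats overlapped. The log2 ratio differed by 2.67 between DEN model and normal control and by -3.08 between PZH administration and DEN model (exact permutation p = 0.1 in each), and by -0.41 between PZH administration and normal control (exact permutation p = 0.4). The same ratio for Cyb5a was 0.94, 0.875 and 0.843 in normal control, 12.2, 6.38 and 8.33 in DEN model, and 1.21, 1.26 and 1.82 in PZH administration rats.

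Genes of electron transfer to P450 enzymes or cytochrome b5 were examined as a list of 11 genes, of which 10 were tested. The list includes Por and Cyb5a, and also Pgrmc1 and Pgrmc2, which are not counted here as electron donors. In the DEN model group 6 fell and 1 rose, with a median log2 fold change of -0.87 against 0.03 over all genes, and under scaling by library totals 4 fell and 3 rose with a median of -0.05 against 0.89. Pgrmc2, a heme-binding membrane protein, fell by 1.97 on the log2 scale (SE 0.2, edgeR adjusted p = 0.00023), and Fdxr, the mitochondrial ferredoxin reductase, fell by 1.83 (SE 0.29, edgeR adjusted p = 0.0017). The gene that rose was Cyb5r1, an NADH-cytochrome b5 reductase family member (log2 fold change 1.03, SE 0.28, edgeR adjusted p = 0.017). It was named after its value was seen. With PZH against the DEN model 4 of the 10 rose and 0 fell in edgeR's test, with a median of 0.79 against 0.01 over all genes, and under scaling by library totals 1 rose and 2 fell, with a median of 0.14 against -0.67. Against normal control only Pgrmc2 differed, being lower with PZH by a log2 fold change of -1.01 (edgeR adjusted p = 0.018).

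Transcription factors and cofactors known to act on Cyp3a genes formed a list of 20 genes, 19 of them tested. Nr3c1 was not analysed here. In the DEN model group 13 fell and 1 rose, with a median log2 fold change of -1.45 against 0.03 over all genes, and under scaling by library totals 10 fell and 3 rose with a median of -0.63 against 0.89. Nr0b2, the corepressor SHP, fell by 2.91 (SE 0.42, edgeR adjusted p = 0.0011), and Foxa3, a hepatocyte forkhead factor, fell by 2.09 (SE 0.38, edgeR adjusted p = 0.003). The factor that rose was Vdr, the vitamin D receptor, which had at most 2 counts in any normal control rat and 16.7 ± 6.58 CPM in the DEN model (SD, n = 3), at least 70.1-fold above a limit of 3 counts per normal control library. In the PZH administration rats it stood at 6.4 ± 3.24 CPM, at least 26.9-fold above that limit.

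The xenobiotic receptors of this list are given for their role on Cyp3a genes, and were picked with their values known. Nr1i2 (PXR) was at 241 ± 33 CPM in normal control, 75 ± 35.6 CPM in DEN model and 136 ± 35.5 CPM with PZH (SD, n = 3 each). It fell in the DEN model (log2 fold change -1.67, SE 0.33, edgeR adjusted p = 0.004), and its difference between PZH administration and DEN model was 0.88 (SE 0.35, edgeR adjusted p = 0.11). Rxra, the partner of PXR and CAR, fell in the DEN model (log2 fold change -1.94, SE 0.35, edgeR adjusted p = 0.0026). Nr1i3 (CAR) did not pass the test in the DEN model (log2 fold change -0.53, SE 0.48, edgeR adjusted p = 0.4), and its value was 0.26 under scaling by library totals, where the median of all genes was 0.89. Hnf4a, the hepatocyte nuclear receptor, fell by 1.64 in the DEN model (SE 0.29, edgeR adjusted p = 0.0024) and was higher with PZH than in the DEN model (log2 fold change 1.11, SE 0.27, edgeR adjusted p = 0.026), a call that was lost under scaling by library totals (0.47, edgeR adjusted p = 0.11).

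With PZH against the DEN model, 7 of the 19 factors rose and 0 fell in edgeR's test, with a median log2 fold change of 1.11 against 0.01 over all genes, and under scaling by library totals 2 rose and 1 fell, with a median of 0.47 against -0.67. Foxa3 had the largest difference (log2 fold change 1.83, SE 0.39, edgeR adjusted p = 0.019). Against normal control 1 factor was higher with PZH, namely Vdr, and 3 were lower, namely Nr0b2 (log2 fold change -1.66, edgeR adjusted p = 0.013), Cebpb (-1.68, edgeR adjusted p = 0.01) and Nr1h4 (-0.79, edgeR adjusted p = 0.045), the last of which did not pass under scaling by library totals (edgeR adjusted p = 0.12).

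**Figure D4:**
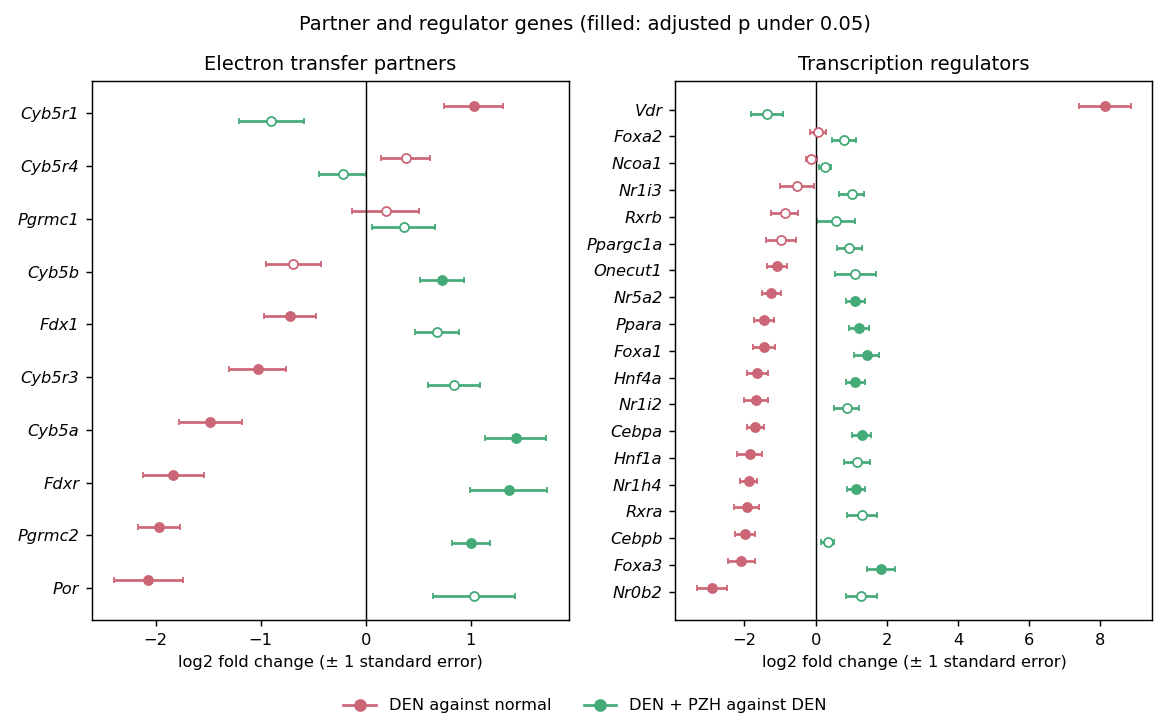
Log2 fold changes, with bars of 1 standard error, in the DEN model against normal control and in PZH administration against DEN model. Shown are the 10 tested genes of the electron transfer list, with Pgrmc1 and Pgrmc2 (left), and the 19 tested Cyp3a regulators (right). Filled points have an edgeR adjusted p under 0.05. In the former comparison 6 and 13 points are filled to the left of 0, of which 4 and 10 stay so under scaling by library totals, and the Vdr point depends on normal control libraries with at most 2 counts.

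Heme is the prosthetic group of every P450, and 14 genes of its synthesis and breakdown were tested. In the DEN model 6 fell and 0 rose in edgeR's test, with a median log2 fold change of -0.54 against 0.03 over all genes. Under scaling by library totals 1 fell and 2 rose, with a median of 0.3 against 0.89 over all genes, so that the list lay below the median of all genes in both. Slc25a38, the mitochondrial glycine carrier needed at the start of heme synthesis, fell by 1.75 (SE 0.28, edgeR adjusted p = 0.0017) and kept that call under scaling by library totals (log2 fold change -0.94, edgeR adjusted p = 0.011). Alad, which makes porphobilinogen, and Cpox, which oxidizes coproporphyrinogen, fell by 1.19 and fell by 1 (edgeR adjusted p = 0.0017 and 0.0049), calls that were lost under scaling by library totals (edgeR adjusted p = 0.12 and 0.49). With PZH against the DEN model 5 of the 14 rose and 0 fell in edgeR's test, and under scaling by library totals 0 rose and 2 fell, with medians of 0.51 against 0.01 and -0.16 against -0.67. The heme oxygenase gene Hmox1 differed by -1.31 between these groups (SE 0.44, edgeR adjusted p = 0.07). Under scaling by library totals it passed the test in that comparison (log2 fold change -2.02, edgeR adjusted p = 0.0073) and in the DEN model against normal control (1.53, edgeR adjusted p = 0.0047). No gene of the list changed between PZH administration and normal control in edgeR's test.

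Further enzymes that receive electrons through POR or cytochrome b5 formed a list of 12 genes, 11 of them tested. Most act in fatty acid desaturation or in sterol, steroid and bile acid synthesis, and the list also holds Fa2h, a fatty acid hydroxylase that was not tested, and Hmox1, which is counted in the heme list too. In the DEN model 8 fell and 0 rose in edgeR's test (median log2 fold change -1.81 against 0.03 over all genes). Under scaling by library totals 6 fell and 2 rose, namely Hmox1 and Dhcr7 (median -1 against 0.89). Fads2 and Fads1, the front-end fatty acid desaturases fused to a cytochrome b5 domain, fell by 3.23 (SE 0.39, edgeR adjusted p = 0.00051) and fell by 2.52 (SE 0.34, edgeR adjusted p = 8e-04). Scd, a stearoyl-CoA desaturase that uses cytochrome b5, fell by 2.56 (SE 0.74, edgeR adjusted p = 0.021). With PZH against the DEN model 9 of the 11 rose and 0 fell in edgeR's test (median 1.58 against 0.01), and 7 rose and 1, Hmox1, fell under scaling by library totals (median 0.92 against -0.67). Scd had the largest difference (log2 fold change 3.41, SE 0.62, edgeR adjusted p = 0.014) and varied widely among rats, with 788 ± 757 CPM in normal control, 133 ± 70 CPM in DEN model and 1400 ± 896 CPM with PZH (SD, n = 3 each). No gene of this list changed between PZH administration and normal control in edgeR's test, where the median was -0.16.

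Summed markers of hepatocytes, cholangiocytes and stellate cells moved with these results. The sum of the lymphocyte list moved too, but mostly through Ptprc, so it is not a level of lymphocytes. The summed macrophage markers overlapped across the 3 groups. Summed over 8 of 9 hepatocyte markers in the table, the level was 171000 to 185000 CPM in normal control rats. It was 37400 to 88000 CPM in DEN model and 143000 to 188000 CPM in PZH administration rats. In the DEN model 2 of the 8 fell, Ttr (log2 fold change -3.89, edgeR adjusted p = 0.00067) and Alb (log2 fold change -2.09, edgeR adjusted p = 0.037). With PZH against the DEN model only 1 of the 8 rose in edgeR's test, Ttr (log2 fold change 3.5, edgeR adjusted p = 0.012). Under scaling by library totals Alb was called too (1.27, edgeR adjusted p = 0.022). Summed cholangiocyte markers were 13.4 to 21.1, 235 to 756 and 80.9 to 108 CPM, and all 6 rose in the DEN model and fell with PZH. Summed stellate and myofibroblast markers were 205 to 331, 1140 to 3360 and 658 to 790 CPM, with 8 of 9 higher in the DEN model and 5 of 9 lower with PZH. Summed lymphocyte markers were 21.5 to 32.5, 62.5 to 140 and 35.9 to 46.2 CPM. Ptprc carried most of that sum, at means of 25.8, 85.8 and 38.3 CPM. It rose in the DEN model with Cd3e but not Cd79b, and it alone fell with PZH. Cd3d and Ms4a1 were not tested. Macrophage markers summed to 428 to 836, 396 to 531 and 223 to 516 CPM. Of these, Marco and Clec4f fell in the DEN model, and Adgre1, Cd68 and Csf1r fell with PZH. Endothelial markers summed to 299 to 378, 168 to 294 and 264 to 362 CPM. In the DEN model Vwf rose, and Clec4g, Kdr and Lyve1 fell. Gut epithelium markers, relevant to Cyp3a62, summed to 193 to 215, 67.3 to 569 and 33.1 to 137 CPM. Cdh17, a cadherin, carried nearly all of the sum in normal liver, at 202 ± 11.5 CPM (SD, n = 3), and did not pass the test in the DEN model (log2 fold change -1.01, edgeR adjusted p = 0.46). The other 8 genes had means of at most 2.11 CPM in normal liver. Gucy2c, Slc15a1, Vil1 and Tff3 rose in the DEN model, to means of 27.6, 24.9, 16.3 and 18.8 CPM, and the last 3 of them fell with PZH in edgeR's test. Gucy2c, Cdx1, Lgals4 and Slc15a1 had 0 counts in all normal control rats. In the DEN model Lgals4 and Cdx2, which were not tested, stood at 66.6 ± 86.6 and 6.12 ± 9.92 CPM. Cdh17 stood at 99.2 ± 151 CPM there (SD, n = 3 each), so the DEN model rats differed widely in these genes. In bulk liver, fewer hepatocytes and less RNA per hepatocyte cannot be told apart, and the part of cell makeup in the changes of the 6 genes was not tested.

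The level of each member was also divided by the summed hepatocyte markers of the same rat, a ratio added after the data had been seen. Alb and Tf were the largest parts of this sum. Their means were 94900 and 36500 CPM in normal control, and 22000 and 18300 CPM in DEN model rats. Alb was called lower in the DEN model and Tf was not, so the ratio is not a level per hepatocyte. The log2 ratio differed between DEN model and normal control by -7.16 for Cyp3a23/3a1, -3 for Cyp3a18, -2.29 for Cyp3a9, 3.18 for Cyp3a62 and -0.47 for Por, each with an exact permutation p of 0.1. For Cyb5a it differed by 0.16 (exact permutation p = 0.6). Between PZH administration and DEN model it differed by 6.39 for Cyp3a23/3a1, 2.69 for Cyp3a18 and -1.85 for Cyp3a62 (exact permutation p = 0.1 each), by 1.08 for Cyp3a9 (exact permutation p = 0.3), by -0.53 for Por (exact permutation p = 0.2) and by -0.07 for Cyb5a (exact permutation p = 0.8). These tests cannot go below 0.1 with 3 rats against 3.

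The genes whose profiles over the 9 rats were nearest to each member were found among 12616 other genes, as the smallest root mean square difference of centred log2(CPM + 1). Nearest to Cyp3a23/3a1 were Sult1e1, the estrogen sulfotransferase (0.55), Car3, a carbonic anhydrase (0.63), and Cyp2c11, the male-specific P450 of rat liver (0.96). Nearest to Cyp3a18 were Rup2 (0.26), Slco1a4, an organic anion transporter (0.27), and Cyp2c13, another male-specific P450 (0.41). Nearest to Cyp3a9 were Crot (0.54), Lipo1 (0.55) and Oat (0.59). Nearest to Cyp3a62 were Tmem72 (0.23), Brca1 (0.24) and Il17rb (0.28). Por lay nearest to Mecr (0.12), Aldh1l2 (0.15) and P2ry2 (0.15), and Cyb5a to Aldh6a1 (0.13), Bphl (0.14) and Hsd11b1 (0.14).

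Cyp3a genes are related copies, and how reads matching more than 1 of them were counted was not given in the sources used here, so the counts of individual genes are uncertain to that extent. The identity of their transcripts was not measured. Within Cyp3a23/3a1 the table lists a processed transcript, AABR07035374.1 (12:11663683-11677830), whose counts amounted to 17.8% to 89.3% of those of Cyp3a23/3a1 in the 9 rats. It differed by -7.72 in the DEN model against normal control (edgeR adjusted p = 0.0015) and by 7.29 with PZH against the DEN model (edgeR adjusted p = 0.013). Adding its counts to Cyp3a23/3a1 changed no count of members called in the 3 comparisons. The log2 fold change of Cyp3a23/3a1 in PZH administration against normal control then moved from -0.93 to -0.78 (edgeR adjusted p = 0.092 and 0.26). The transcript stood at 665 CPM in normal control rat 1 and at 1130 CPM in PZH administration rat 27. The separation of these 2 groups given above is therefore that of the Cyp3a23/3a1 row alone, without this transcript. Beside Cyp3a18 lie 2 unprocessed pseudogenes, AABR07035343.1 and AABR07035348.1, which fell by 5.2 and fell by 7.11 on the log2 scale in the DEN model (edgeR adjusted p = 0.00056 and 0.00073) and were higher with PZH by 4.33 and 7.17 (edgeR adjusted p = 0.009 and 0.0093). RefSeq lists the former as a synonym of Cyp3a23-3a1, but its counts were not added to those of Cyp3a23/3a1 here. These rows were named after their values were seen.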

How the data were processed

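Liver mRNA libraries of 9 rats were sequenced on an Illumina NovaSeq instrument, 1 library per rat. The authors deposited whole-number read counts per gene and rat, not normalized, and FPKM values, which they scaled for gene length and library size. The submitters' processing notes name fastp, HISAT2 2.1.0, StringTie 1.3.3b and edgeR 3.30.3, and the genome build and strand setting were not given in the sources used here. The table also holds authors' group means and their fold changes, P-values and Q-values for 3 comparisons, which were not used.

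Counts were filtered with filterByExpr, scaled by TMM and tested with the quasi-likelihood test of edgeR 4.0.16 in R 4.3.3 using the 6 rats being compared and no covariates, with Benjamini-Hochberg adjustment over all genes tested. CPM values use TMM factors from all 9 rats. Confidence intervals are at 95%. Summed FPKM and ratios were compared by exact two-sided permutation. Alternatives were DESeq2 1.42.0, limma 3.58.1 on log2(FPKM + 1), library totals, other filters, all rats in 1 fit, the thresholds of the study, and leaving out each rat. Promoter windows came from RefSeq. On simulated counts of the DEN model against normal control with 196 of 13988 genes shifted by 2 on the log2 scale, edgeR called 156 of them and 12 unchanged genes, and DESeq2 174 and 51. The shifts went in both directions and no scaling difference between groups was simulated. These numbers therefore do not cover the differences in TMM factors of the real libraries.

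The members and gene lists were chosen with earlier results of these data known. Genes named from a list are the 3 with the largest absolute log2 fold change in the DEN model against normal control and the 1 with the largest in PZH administration against DEN model, unless stated. The labels name the rats but no separate cohorts, so p-values measure only the spread between these rats, and 3 counts per library set the limit of detection for counting error only.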

Additional observations from a re-analysis of the deposited data

How the results depend on the processing

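The count of members changed in the DEN model against normal control stayed between 5 and 6 when each rat was left out and was 6 under DESeq2, library totals, limma and both other filters, and 4 at the thresholds of the study. In PZH administration against DEN model the count was 4, with 2 at the thresholds of the study and a range of 2 to 5 when rats were left out, the lowest without rat 13, 24 or 28. In PZH administration against normal control it was 0, with 3 under DESeq2, 1 under library totals, 1 under limma, and a range of 0 to 1 when rats were left out. Cyp3a62 in PZH administration against DEN model turned from -0.37 to 0.02 on the log2 scale without rat 17, and passed the test with a negative sign under library totals (-0.99) and limma (-0.91). Cyb5a in PZH administration against normal control turned from -0.08 to 0.15 under both library totals and limma. Cyp3a9 in PZH administration against DEN model was 1.69 under limma (limma adjusted p = 0.051) and 2.51 under library totals (edgeR adjusted p = 0.019). Limma was run on FPKM without TMM factors and with 1 added, so it and library totals are not independent alternatives. The cause of these shifts was not tested. The summed Cyp3a level and the ratio of Por to it kept their direction under every alternative run, including leaving out each rat, for which the differences in the sum ranged from -4.31 to -3.57, 3.05 to 3.79 and -0.64 to -0.37 in the 3 comparisons. Summed CPM in place of FPKM gave larger differences, -5.2, 4.42 and -0.77. Over single members, 75, 66 and 68 alternative values in the 3 comparisons kept direction and call, 3, 7 and 0 lost the call, 0, 4 and 8 gained it, and 0, 1 and 2 turned sign. No paired analysis was possible because the groups share no rat numbers. Every member stayed above the limit of 3 counts in each library. The counts of Cyp3a copies, pseudogenes and the transcript inside Cyp3a23/3a1 could not be separated here, because only counts per gene were used.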
